A study of Homo sapiens with 12 samples.

Results

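The 10 genes described here encode telomerase RNA and proteins of telomerase and of the telomere cap, out of 57736 genes in the deposited count tables of an experiment with a red seaweed extract. They are TERC, TERT, DKC1, NHP2, NOP10, GAR1, TINF2, TERF1, TERF2 and POT1, each found by its gene name, with the counts of all its regions summed. TERC was selected on the increase of its counts in treated Ls174 cells in earlier results of these data. The other 9 genes were chosen by their part in the same complexes. The fold changes of the 10 genes between treated and control cells and between the cell lines are therefore given as a description, with no p value. How many of them passed the rule applied to all genes is given beside the share or number of all genes that did, and nothing is read from it.

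Established human tumour lines were used, HepG2 from a liver cancer and Ls174 from a colon cancer, and both carry the genotype label WT. Cells received the Hypnea musciformis extract (HME) for 24 h at the same concentration in both lines, labelled 0.7 mg/ml, or no treatment. The study based its choice on the concentrations that inhibit growth by 50%, which differed between the lines. The study's methods give a slightly higher concentration than the label. The 4 groups, HepG2 control, HepG2 HME, Ls174 control and Ls174 HME, held 3 libraries each, 12 in all. Each tissue is represented by a single tumour line, so that the tissue and the line cannot be told apart.

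Telomerase is a reverse transcriptase that adds telomere repeats to chromosome ends, copying them from a template within its own RNA subunit, TERC. TERT is the catalytic protein. DKC1 (dyskerin), NHP2, NOP10 and GAR1 bind the box H/ACA domain at the 3′ end of TERC, as they bind other box H/ACA RNAs, and keep the RNA stable. The shelterin complex covers the repeats: TERF1 (TRF1) and TERF2 (TRF2) bind them as duplex DNA, POT1 binds the single strand, and TINF2 (TIN2) links these proteins. TERC is not a messenger RNA, and its mature form carries no poly(A) tail. It is made as longer precursors, to which PAPD5 adds short A tails and which PARN trims. Libraries primed on poly(A) count such an RNA only where A bases give the primer a site.

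TERC lies on the minus strand of chromosome 3, and its sequence is shown because it carries the template and because it sets what the libraries could count. The letters are those of the GRCh37 genome. In the first line the capitals mark the template, positions 46 to 56 of the RNA. In the second line they mark the ACA box, 3 bases before the end of the 451-base RNA that RefSeq gives, with positions counted from the 5′ end of the annotated gene.

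TERC template, chr3:169482785-169482811: ttttttgtCTAACCCTAACtgagaagg

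TERC 3′ end, chr3:169482398-169482421: acccaggactcggctcacACAtgc

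The only region counted for TERC was chr3:169482111-169482397, 287 bases long. It begins at the base that follows the 451-base RNA, so that no base of that RNA lies inside it. Its first 90 bases, in capitals below, lie within the longer 541-base transcript of the GENCODE annotation, and the other 197 bases lie past that one.

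TERC counted region: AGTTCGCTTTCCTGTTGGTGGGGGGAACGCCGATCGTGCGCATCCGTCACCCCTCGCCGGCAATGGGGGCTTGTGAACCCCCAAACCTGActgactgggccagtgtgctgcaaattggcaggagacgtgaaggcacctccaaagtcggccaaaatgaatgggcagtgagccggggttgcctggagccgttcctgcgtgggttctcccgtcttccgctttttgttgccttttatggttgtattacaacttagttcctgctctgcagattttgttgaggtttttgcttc

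The region had a GC content of 55.4%, against 67.41% in the RNA. Its longest run of A bases was 4, and the longest in the 200 bases downstream was 5. Neither AATAAA nor ATTAAA, the hexamers that precede most poly(A) sites, occurred in the region or in those 200 bases on the strand of the gene. Counts named TERC in these data are thus reads that overlap the stretch past the end of the 451-base RNA.

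The protein genes were counted mainly at messenger 3′ ends. The most counted region ran about 197 bases past the annotated end of the gene, but lay inside the gene for NOP10 and TINF2. In the last 250 bases of that region, AATAAA or ATTAAA was found on the gene's strand for 6 of the 10 genes. TERC is among the 10 and had no match. The share was 77.4% of the 13040 genes tested over the 12 libraries. GAR1 and POT1 stand for genes counted almost wholly in 1 region, and TERF2 for a gene counted in several, of which the last is given. Capitals mark the hexamer. No match says only that these letters are not in the window.

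GAR1, chr4:110745867-110745896: ttaaAATAAAgtgttttattcccttaagtt

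POT1, chr7:124462437-124462466: tttaAATAAAcatccaccttatcatgattt

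TERF2 last region, chr16:69389466-69389495: cttcATTAAAgtcttgcttctctcaactgt

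Libraries held between 1790841 and 3656662 counts, and between 13885 and 19354 genes had a count. The floor of 3 counts corresponds to 0.763 to 1.86 CPM (counts scaled to a common library size, with TMM factors), depending on the library. HepG2 control 2 and Ls174 control 1 stood apart from the other controls of their lines, with 49.1 to 54.1 and 34.5 to 37.0 for the chi-square of their counts per degree of freedom against their replicates, where the remaining control pairs had 13.6 and 5.68. Summed CPM of 8 liver markers was 12796 to 21316 in HepG2 and 0 to 126 in Ls174 libraries. All 8 had a count in Ls174 control 3 (126 CPM) and 7 in Ls174 HME 1 (57.6 CPM). The remaining Ls174 libraries had 0 to 9.47 CPM, and the part of this liver RNA in the values below was not tested. Summed CPM of 8 colon markers was 70.0 to 215 in HepG2 and 270 to 403 in Ls174 libraries. Of the 6 tested between the control lines, 1 passed the unadjusted rule as higher in HepG2 and 5 as lower. The higher one, VIL1, stood at 136 CPM in HepG2 control and 62.5 CPM in Ls174 control. CDX1 stood at 0.268 and 141 CPM, and CDX2 at 0.993 and 72.1 CPM. In HepG2 HME 2, 6 mesenchymal markers, led by collagen genes, summed to 955 CPM, against 0.309 to 11.9 in the other 11 libraries, and the part of that RNA in the values below was not tested.

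TERC was near 0 in untreated Ls174 cells and was counted in every treated library. The counts were 0, 0 and 3 in the Ls174 control libraries and 25, 38 and 36 in the Ls174 HME libraries. As levels, these were 0, 0 and 0.763 CPM against 9.05, 13.4 and 11.8 CPM, so that the groups lay far apart. The group levels were 0.254 ± 0.441 and 11.4 ± 2.21 CPM (mean ± SD, n = 3). The 99 treated counts stood against 3 control counts, a ratio of 35.2 after normalisation with an exact 95% interval of 11.7 to 173 that covers counting error only. In RNA from whole cultures, fewer cells with an RNA and less RNA per cell cannot be told apart.

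The fitted log2 fold change of TERC in Ls174 cells was 5.01 ± 0.80 (SE). TERC entered this fit only through its treated libraries. Ls174 control 1, the library that stood apart, was 1 of the 2 control libraries with no TERC count, and without it the ratio was 27.3 (interval 9.09 to 135). All 3 control counts came from Ls174 control 3, without which no control count remained.

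In HepG2 cells the region counted for TERC held counts in both groups. Its counts were 4, 15 and 3 in the control libraries and 11, 11 and 8 in the HME libraries, or 1.07, 9.29 and 1.20 CPM against 4.33, 3.86 and 4.78 CPM. One control library, HepG2 control 2, lay above all treated libraries and the remaining ones lay below them, so that the groups overlapped. The levels were 3.85 ± 4.71 CPM in control and 4.32 ± 0.457 CPM in treated cells (n = 3), a log2 fold change of 0.33 ± 0.82. The ratio of counts was 1.51 (95% counting interval 0.845 to 2.76). Without HepG2 control 2, which stood apart over all genes, the ratio was 3.78 (interval 1.63 to 10.2) and the log2 fold change 1.95.

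The order of levels in the region counted for TERC was thus Ls174 HME, HepG2 HME, HepG2 control and Ls174 control. The HepG2 groups did not differ beyond their spread. HepG2 control 2 reached 9.29 CPM, above the lowest Ls174 HME library at 9.05 CPM. The HepG2 controls, with 1.07 CPM or more, all lay above the Ls174 controls, with 0.763 CPM or less, at 3 to 15 counts a library. The difference of the treatment effects, HepG2 minus Ls174, was -4.67 ± 1.27 on the log2 scale. It was -3.13 without HepG2 control 2.

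Other short RNAs that end without a poly(A) tail were counted in the same libraries. A list of 12 such RNAs held RMRP and RPPH1 (catalytic RNAs), RN7SK (which holds back the elongation factor P-TEFb), RN7SL1 and RN7SL2 (signal recognition particle RNAs), 3 vault RNAs and 4 Y RNAs. For the 10 of them matched in the annotation by symbol, the counted region also began at or next to the base after the annotated 3′ end, and it was 197 bases long for most. Their summed level was 37.7, 22.3 and 24.1 CPM in HepG2 control and 118, 88.1 and 109 CPM in HepG2 HME libraries. In Ls174 it was 0, 7.10 and 14.2 CPM in control and 27.5, 29.7 and 30.7 CPM in HME libraries. All treated libraries of a line thus lay above all of its controls, and Ls174 control 1, with no TERC count, had no count for any of the 12. The order of libraries was not that of TERC counts in HepG2, where control 2 had the most TERC counts and the smallest of these sums.

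In HepG2, 4 of the 7 RNAs of this list that were tested passed the unadjusted rule (an unadjusted p under 0.05 with a log2 fold change larger than 0.58 in size), all upwards, and 3 of them also an adjusted p under 0.05 in edgeR. Over all 11343 genes tested there, 11.3% passed the unadjusted rule upwards and 3.29% the adjusted threshold. RN7SK had 2, 0 and 4 counts in control and 104, 63 and 47 in HME libraries, a log2 fold change of 5.25 ± 0.63 (adjusted p = 0.00256). RNY3 rose by 3.88 ± 0.88 (adjusted p = 0.0471) and RNY1 by 2.08 ± 0.44 (adjusted p = 0.0335). RN7SK kept its call in 14 of 14 alternatives, RNY3 in 9 and RNY1 in 6, with losses for both when HepG2 control 3 or any HME library was left out. In Ls174 only RN7SL1 had enough counts for the test, and it did not pass (log2 fold change 1.43, 0 RNAs at an unadjusted p under 0.05 in edgeR and 0 by DESeq2). RMRP, too low for the test there, had 0, 0 and 4 counts in control and 14, 9 and 10 in HME libraries. These RNAs were listed with earlier results of these data known and could pass the filter through their treated libraries alone. Their part in the TERC result was not tested.

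**Figure D1:**
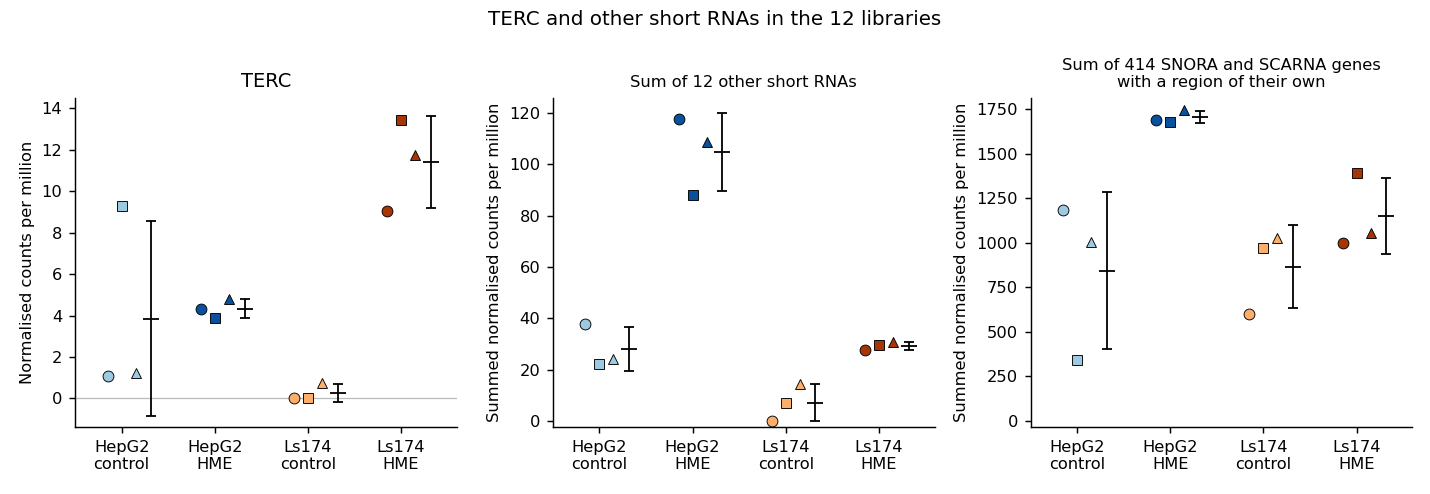
Region counted for TERC, past the 451-base RNA (left), the sum of 12 other short RNAs (middle) and the sum of 414 SNORA and SCARNA genes whose region overlaps no other gene's region (right), in CPM on linear axes. Each symbol is a library (circle, square and triangle for replicates 1, 2 and 3) and the bar beside them is the mean ± SD of 3. The region counted for TERC went from at most 0.763 to at least 9.05 CPM in Ls174, and 1 HepG2 control library stood at 9.29 CPM.

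TERC shares its H/ACA domain and its binding proteins with the box H/ACA RNAs, which guide pseudouridylation. Genes were taken here by names that begin with SNORA or SCARNA, and not every SCARNA is a box H/ACA RNA. Of 460 such genes, 39 were tested in HepG2, and 18 passed the unadjusted rule upwards and 1 (SNORA12) downwards, where 11.3% and 10.9% of all genes did. Their median log2 fold change was 1.09, against -0.04 over all tested genes. In Ls174, 28 were tested, 6 passed upwards and 0 downwards, where 4.11% and 7.84% of all genes did, and the median was 0.65 against -0.00. Genes such as SNORA11E, with 4, 5 and 1 counts in HepG2 control and 26, 30 and 12 in HME libraries, could pass the filter on low counts through their treated libraries alone, so that these counts and medians lean upwards. Part of these genes share reads with a host gene or with each other. SCARNA17 and a gene named SCARNA18 had the same counts in all 12 libraries, and both are among the 18. A region of their own was held by 414 genes. Among those the medians were 1.34 (23 tested) in HepG2 and 0.80 (14 tested) in Ls174.

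SCARNA9, a Cajal body RNA, was the SCARNA or SNORA gene that rose at an adjusted p under 0.05 in HepG2, with 430, 84 and 345 counts in control and 834, 852 and 559 in HME libraries (log2 fold change 1.68 ± 0.38, adjusted p = 0.0435). It kept the call in 7 of 15 alternatives and lost it without HepG2 control 1 or 3 or any HME library. DESeq2 gave 10 such genes there. In Ls174 none passed the adjusted threshold in edgeR, 6 were at an unadjusted p under 0.05, and DESeq2 also gave 0. The sum over the 414 genes was 1184, 344 and 1003 CPM in HepG2 control and 1691, 1678 and 1743 CPM in HME libraries, which did not overlap. In Ls174 it was 600, 971 and 1026 CPM against 999, 1393 and 1056 CPM, which did. HepG2 control 2, the control library with the most TERC counts, thus had the smallest such sum.

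TERT, the catalytic protein, was close to the floor. Its counts were 13, 16 and 21 in HepG2 control and 6, 9 and 2 in HepG2 HME libraries, and 13, 3 and 11 in Ls174 control and 2, 3 and 7 in Ls174 HME libraries. The HepG2 levels were 3.47, 9.91 and 8.43 CPM in control and 2.36, 3.16 and 1.19 CPM in treated cells, which did not overlap, but the lowest treated library was below the floor. The levels were 7.27 ± 3.37 and 2.24 ± 0.989 CPM. In Ls174 they were 3.36 ± 2.76 and 1.36 ± 0.822 CPM and overlapped. TERT was too low for the test within either line. Between the control lines its log2 fold change, HepG2 over Ls174, was 1.18 ± 0.76.

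Of the 4 H/ACA proteins, 3 had a higher and 1 a lower mean level in treated than in control HepG2 cells. DKC1, the pseudouridine synthase of the complex, was counted mainly (93.3%) at chrX:154005143-154006161. Its levels were 170, 123 and 157 CPM in HepG2 control and 158, 237 and 251 CPM in HepG2 HME libraries, where 1 treated library lay among the controls. The log2 fold change was 0.54 ± 0.31. A further DKC1 region with 2.26% of its counts was also listed for SNORA56 with the same reads.

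NOP10, the smallest of the core proteins, had 118, 21.7 and 129 CPM in HepG2 control and 221, 149 and 170 CPM in HME libraries. All treated libraries were above all controls, and HepG2 control 2 lay far below the other controls. The log2 fold change was 1.05 ± 0.53, and 0.62 at the lowest among the alternative analyses. GAR1 (chr4:110745588-110746090), which joins the particle last, had 40.6, 30.3 and 37.8 CPM against 53.1, 54.1 and 45.4 CPM. These groups did not overlap either, at a smaller log2 fold change of 0.50 ± 0.28.

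NHP2 (chr5:177576264-177576796) was the lower one. Its levels were 47.3, 82.4 and 88.8 CPM in HepG2 control and 49.5, 33.0 and 34.6 CPM in HepG2 HME libraries, and 1 library of each group lay within the range of the other. The log2 fold change was -0.89 ± 0.36, and it stayed between -1.14 and -0.72 in the alternatives. The region lies over exons of RMND5B on the opposite strand, and whether the counting used strand is not given in the sources used here.

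In Ls174 the 4 H/ACA proteins had log2 fold changes between -0.34 and 0.24. NHP2 had 108, 126 and 113 CPM in control and 87.6, 90.1 and 97.3 CPM in HME libraries, which did not overlap, with a log2 fold change of -0.34 ± 0.18. DKC1 had a log2 fold change of 0.20 ± 0.21 and NOP10 of 0.24 ± 0.30, both with overlapping groups. GAR1 stood at 75.5 ± 10.0 CPM in control and 75.5 ± 11.6 CPM in treated cells. The difference of the treatment effects, HepG2 minus Ls174, lay between -0.56 ± 0.40 (NHP2) and 0.75 ± 0.68 (NOP10) and passed the unadjusted rule for 0 of the 4.

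Of the shelterin genes, POT1 was higher in treated HepG2 cells. Its counts were 49, 15 and 29 in control and 53, 48 and 26 in HME libraries, or 13.1, 9.29 and 11.6 CPM against 20.8, 16.9 and 15.5 CPM. The groups did not overlap, and the log2 fold change was 0.65 ± 0.33. In Ls174 POT1 had 0, 20 and 22 counts in control and 26, 22 and 17 in HME libraries, a log2 fold change of 0.86 ± 0.78 in which the library with no count was Ls174 control 1. Without Ls174 control 1 or 2 or 3 in turn, or under the other alternatives, it lay between 0.37 and 1.27.

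TINF2 was higher in treated Ls174 cells. Its levels were 13.7, 20.4 and 15.01 CPM in control and 24.3, 21.6 and 25.1 CPM in HME libraries, which did not overlap, with a log2 fold change of 0.52 ± 0.26. In HepG2 the levels were 27.5 ± 3.97 and 25.8 ± 4.03 CPM. TERF1 had overlapping groups in both lines, with log2 fold changes of -0.04 ± 0.47 in HepG2 and -0.07 ± 0.40 in Ls174. It was lowest in HepG2 control 2 (7 counts) and Ls174 control 1 (19 counts), the libraries that stood apart.

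TERF2 had counts in 7 of its 9 listed regions, more than the other shelterin genes. Its levels were 92.5, 159 and 82.3 CPM in HepG2 control and 73.9, 152 and 130 CPM in HepG2 HME libraries, and 179, 281 and 251 CPM in Ls174 control and 356, 198 and 216 CPM in Ls174 HME libraries. The groups overlapped in both lines, with log2 fold changes of 0.09 ± 0.40 and 0.11 ± 0.28. In HepG2 HME 2, the library with collagen counts, 155 of the 432 TERF2 counts came from a region of 17 bases that held at most 6 counts elsewhere, and 97.3 CPM remained without it.

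TERF2 counts were divided between the last region (chr16:69389267-69390879, 78.2% of all counts) and an upstream region (17.5%). The last region also overlaps an exon of another annotated gene on the same strand, whose part in the counts was not tested. The upstream share was 31.2%, 71.5% and 42.4% in HepG2 control and 23.4%, 15.3% and 18.4% in HepG2 HME libraries. In Ls174 it was 11.7%, 12.5% and 10.4% in control and 8.85%, 18.8% and 13.6% in HME libraries. Without the 17-base region the share in HepG2 HME 2 was 23.8% in place of 15.3%. With either value the HepG2 controls lay above the treated HepG2 libraries and above the Ls174 controls, also when HepG2 control 2 is left aside. Exact two-sided permutation tests gave p = 0.1 for both, the smallest that 3 against 3 can give, and 0.3 after adjustment over the 12 shares compared in DKC1, TERF1, TERF2 and TINF2. The second region of TINF2 likewise took 14.7% ± 10.7 of its counts in HepG2 control and 3.01% ± 1.65 in HME libraries, without overlap (exact p = 0.1, adjusted 0.3). The second region of TERF1 took 18.9%, 57.1% and 18.4% in HepG2 control and 0%, 10.4% and 11.6% in Ls174 control libraries, at 0 to 14 counts a library, also without overlap (exact p = 0.1, adjusted 0.3). In the last region alone the log2 fold change of TERF2 in HepG2 was 0.60.

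**Figure D2:**
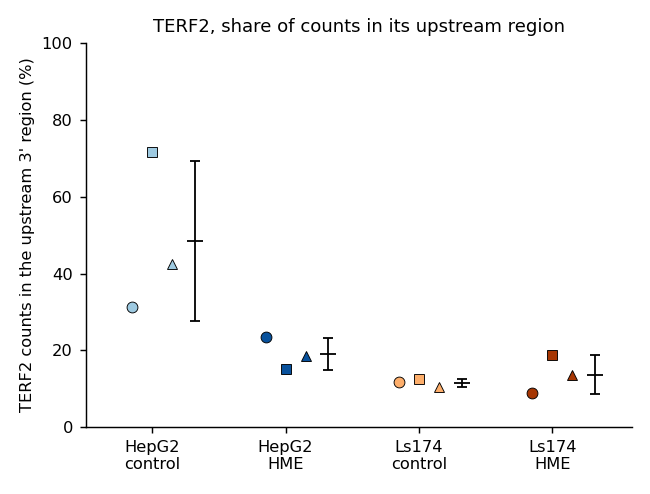
Share of TERF2 counts in the upstream 3′ region, in percent of all TERF2 counts of a library, by group. Symbols are libraries (circle, square and triangle for replicates 1, 2 and 3) and the bar is the mean ± SD of 3. The HepG2 controls stand at 31.2% to 71.5% and the other 9 libraries at 8.85% to 23.4%.

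By the unadjusted rule, 1 of the 9 members tested was called in HepG2 (NHP2), where 22.2% of 11343 genes were called, 11.3% higher and 10.9% lower. At an adjusted p under 0.05 edgeR called 0 of 9, where 3.29% of genes were called. The groups did not overlap for 3 of the 9, against 30.8% of genes. In Ls174, 1 of 9 was called by either rule (TERC), where 11.9% of 11319 genes were called by the unadjusted rule, 4.11% higher and 7.84% lower, and 1.18% at an adjusted p under 0.05. The groups did not overlap for 3 of the 9, against 23.8%. The interaction of line and treatment was called for 1 of 10 members (TERC) by the unadjusted rule and for 0 by the adjusted one in edgeR, where 13.2% and 0.644% of 13040 genes were called. Since TERC was chosen for its change, nothing is read from these counts.

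**Figure D3:**
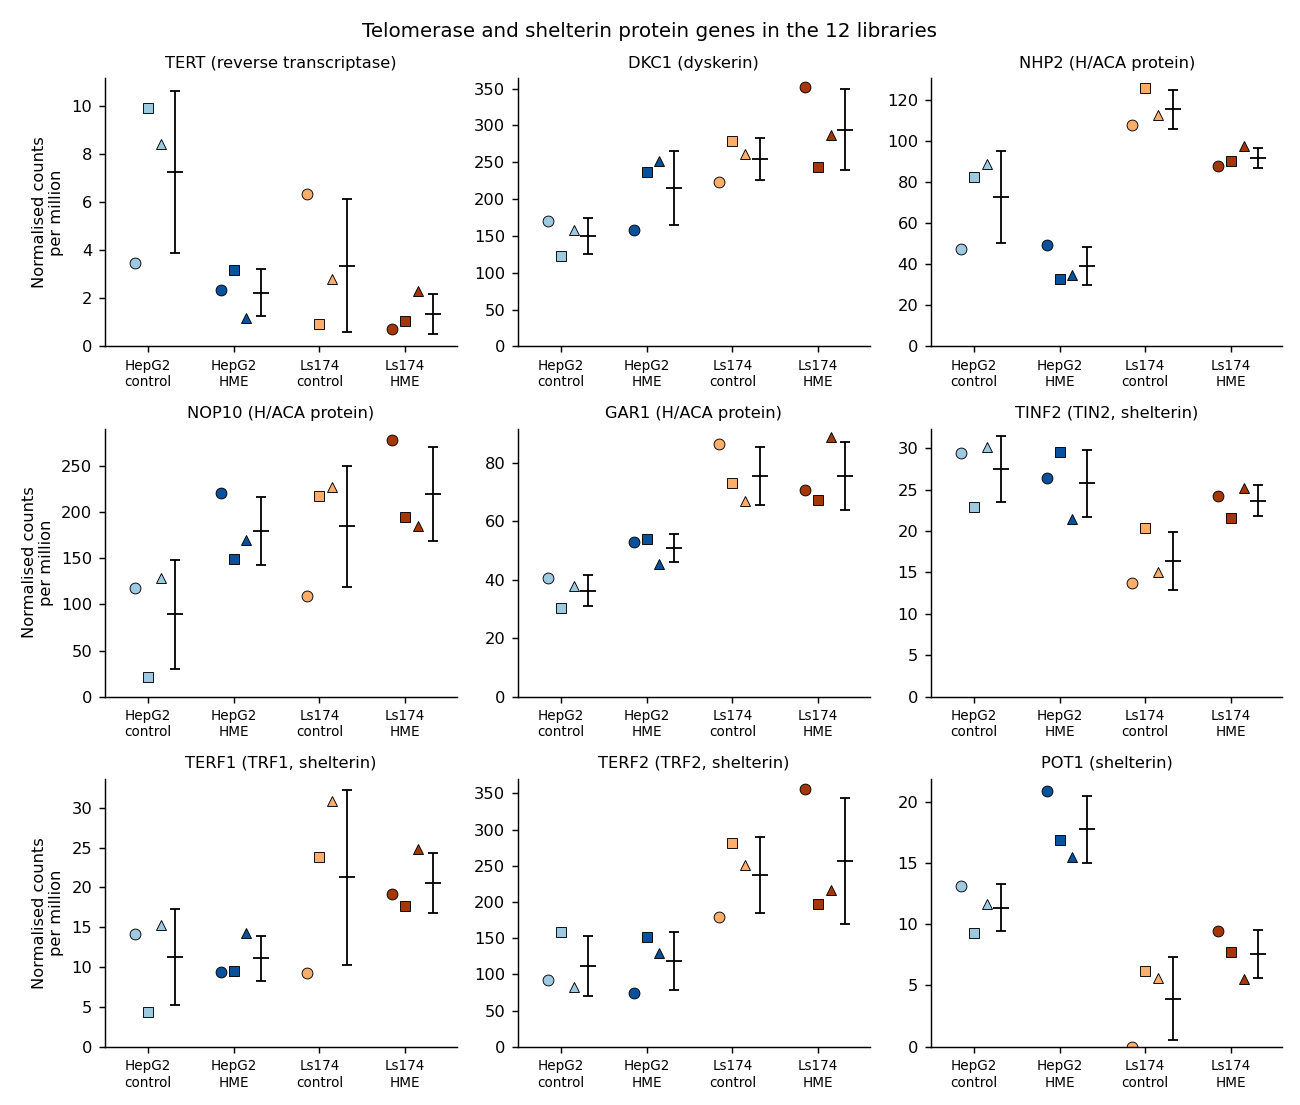
Levels of the 9 protein genes in the 12 libraries, in CPM on linear axes that start at 0. Symbols are libraries (circle, square and triangle for replicates 1, 2 and 3) and the bar is the mean ± SD of 3. NOP10, GAR1 and POT1 were higher in every HepG2 HME library than in any HepG2 control, as was TINF2 in Ls174, and NHP2 was lower in every Ls174 HME library.

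Between the untreated lines most H/ACA protein genes were lower in HepG2. The log2 fold change, HepG2 over Ls174, was -1.02 ± 0.31 for GAR1, -1.03 ± 0.59 for NOP10, -0.73 ± 0.31 for DKC1 and -0.63 ± 0.35 for NHP2. The libraries of the lines did not overlap for GAR1 (30.3 to 40.6 CPM against 66.9 to 86.5 CPM), DKC1 or NHP2, and overlapped for NOP10. Among shelterin genes TERF2 was lower (-1.05 ± 0.39) in HepG2, without overlap. Its log2 fold change was -1.97 in the last region alone, which also overlaps an exon of another gene on the same strand. TINF2 (0.78 ± 0.36) and POT1 (1.49 ± 0.83) were higher, without overlap.

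In this comparison 3 of 9 members were called by the unadjusted rule (DKC1, GAR1 and TERF2), where 34.9% of 11907 genes were called, and 1 (GAR1) at an adjusted p under 0.05, where 23.5% were. The lines did not overlap for 6 of the 9, against 42.6% of genes. The count moved with the libraries used, as did that of all genes. Without Ls174 control 1, 6 of 9 members were called, where 4932 of 12833 genes were. Between the treated libraries of the lines 5 of 9 were called, where 6728 of 11914 genes were. Without HepG2 control 1 or 3, or Ls174 control 2 or 3, 1 member was called, where 3521 to 3904 genes were.

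**Figure D4:**
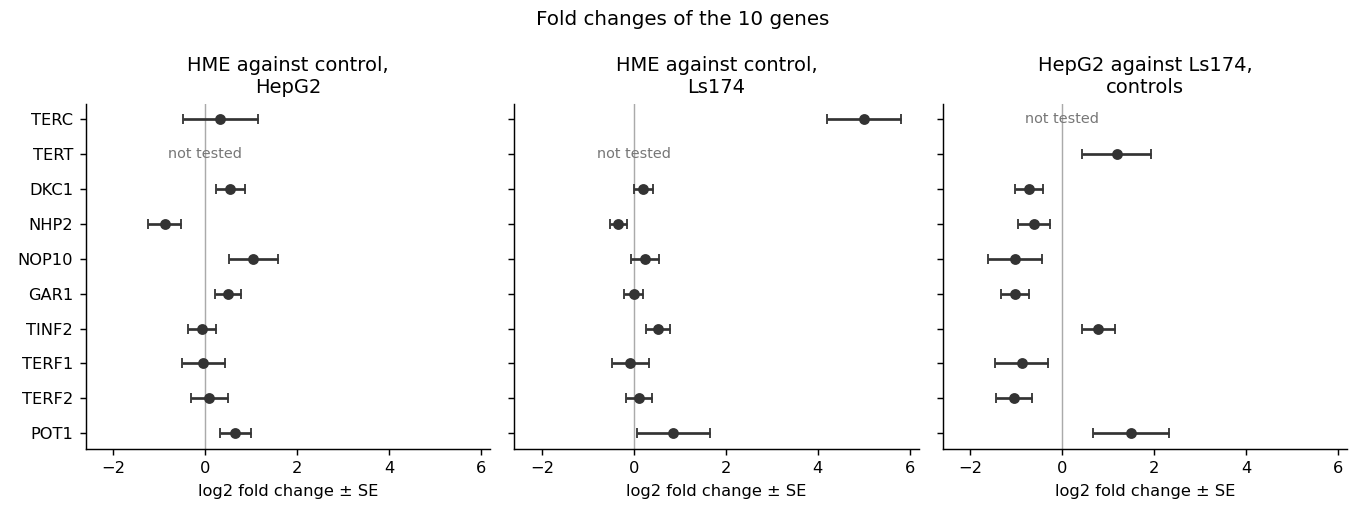
Log2 fold changes with their SE for the 10 genes, treated against control in each line and HepG2 against Ls174 among controls. "Not tested" marks genes with too few counts. TERC in Ls174, at 5.01 ± 0.80, lies apart from the other members, which stay within 1.05 of 0 in the treated comparisons.

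The partners that assemble telomerase were tested as a list of 9 genes, NAF1, SHQ1, RUVBL1, RUVBL2, WRAP53, NOLC1, COIL, HSP90AA1 and PTGES3. In HepG2 0 of 9 passed in edgeR, with 0 at an unadjusted p under 0.05 and 1 by DESeq2, at a median log2 fold change of -0.30 against -0.04 over all genes. In Ls174 0 of 9 passed, likewise with 0 at an unadjusted p under 0.05 and 0 by DESeq2, at a median of 0.02 against -0.00. Between the control lines 2 of 9 passed the unadjusted rule, where 34.9% of all genes did in either direction. These were RUVBL1 (-0.95 ± 0.37), a helicase, and PTGES3 (-1.08 ± 0.40), the p23 chaperone. Both were lower in HepG2, with adjusted p = 0.103 and 0.0878 in edgeR.

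Of 13 genes that process or degrade TERC, 1 passed the unadjusted rule upwards in HepG2, where 11.3% of all genes did. This was PAPD5, the poly(A) polymerase that tails TERC precursors, with 219, 70 and 129 counts in control and 334, 303 and 178 in HME libraries. Its level went from 51.2 ± 7.61 to 115 ± 14.4 CPM without overlap, a log2 fold change of 1.18 ± 0.29 that missed the adjusted threshold (adjusted p = 0.0596, edgeR) and kept the unadjusted call in 15 of 15 alternatives. In Ls174 PAPD5 stood at 23.5 ± 11.5 and 24.3 ± 2.96 CPM, and the interaction was 1.14 ± 0.48 (adjusted p = 0.322). DCP2, a decapping enzyme, was the 1 of 13 that passed the unadjusted rule in Ls174, downwards, as 7.84% of all genes did (-0.62 ± 0.25, adjusted p = 0.333), and kept it in 7 of 15 alternatives. The list's median was 0.24 in HepG2 and 0.13 in Ls174.

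Other telomere proteins, 18 in the list, showed 2 passing the unadjusted rule upwards in HepG2 of 17 tested, against 11.3% of all genes. These were TERF2IP (RAP1, the shelterin partner of TRF2) at 0.88 ± 0.31 (adjusted p = 0.143) and TNKS, a tankyrase that modifies TRF1, at 0.87 ± 0.36 (adjusted p = 0.19). In Ls174, 2 of 16 passed downwards, against 7.84% of all genes, RIF1 at -0.96 ± 0.31 (adjusted p = 0.227) and ATRX, a chromatin remodeller, at -0.98 ± 0.33 (adjusted p = 0.249). Between the control lines 2 of 17 passed the unadjusted rule upwards and 2 downwards, where 34.9% of all genes passed in either direction. Of these DAXX, the partner of ATRX, was higher in HepG2 (1.81 ± 0.43, adjusted p = 0.0147). It was the 1 gene of the list at an adjusted p under 0.05, where 23.5% of all genes were. DAXX missed the threshold without HepG2 control 1, Ls174 control 2 or Ls174 control 3. ACD, the shelterin protein TPP1 that brings telomerase to the telomere, passed the unadjusted rule there, upwards (0.95 ± 0.35, adjusted p = 0.0836), and DCLRE1B (-1.24 ± 0.45) and PINX1 (-1.08 ± 0.38) passed it downwards. No member of the list passed the interaction, by edgeR at an unadjusted p under 0.05 or by DESeq2.

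Of 9 factors known to act on the TERT promoter, 5 passed the unadjusted rule upwards and 1 downwards in HepG2, and 3 rose at an adjusted p under 0.05. Over all genes these shares were 11.3%, 10.9% and, in either direction, 3.29%. The median log2 fold change was 1.20, against -0.04 over all genes. The list was chosen with earlier results of these data known, so that these counts and this median are a description. MXD1, a repressor that competes with MYC for MAX, had 51, 7 and 38 counts in control and 252, 254 and 156 in HME libraries, and rose by 3.07 ± 0.42 (adjusted p = 0.00467). GABPB1, a subunit of the GABP activator, rose by 2.35 ± 0.34 (adjusted p = 0.00633), and ETS2 by 2.76 ± 0.57 (adjusted p = 0.0326). MXD1 was called in all 14 alternatives, GABPB1 in 13 of 14 and ETS2 in 12 of 15. ETS2 missed the adjusted threshold without HepG2 control 3, HME 2 or HME 3 (log2 fold change 2.30 to 3.46 over the alternatives).

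MAX (1.20 ± 0.42, adjusted p = 0.139) and SP1 (1.22 ± 0.38, adjusted p = 0.111) passed the unadjusted rule upwards, and E2F1 passed it downwards (-0.74 ± 0.30, adjusted p = 0.192). In Ls174 the 1 of 9 that passed was MYC, which activates TERT through MAX, downwards, as 7.84% of all genes did. MYC had 219, 113 and 115 counts in control and 78, 37 and 65 in HME libraries (-1.45 ± 0.53, adjusted p = 0.294). Ls174 control 1 held the highest of these levels, and without it the log2 fold change was at its smallest, -0.61. MYC missed the unadjusted rule without Ls174 HME 2 or HME 3. Between the control lines 5 of the 9 passed the unadjusted rule, all lower in HepG2, against 34.9% of all genes in either direction. Of these MAX (-1.29 ± 0.48), SP1 (-1.03 ± 0.38) and GABPA (-1.64 ± 0.63) missed the adjusted threshold, and ETS2 (-3.62 ± 0.59, adjusted p = 0.00192) and MYC (-2.03 ± 0.56, adjusted p = 0.0289) passed it in edgeR. MYC missed the threshold there when any HepG2 control or Ls174 control 1 was left out.

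**Figure D5:**
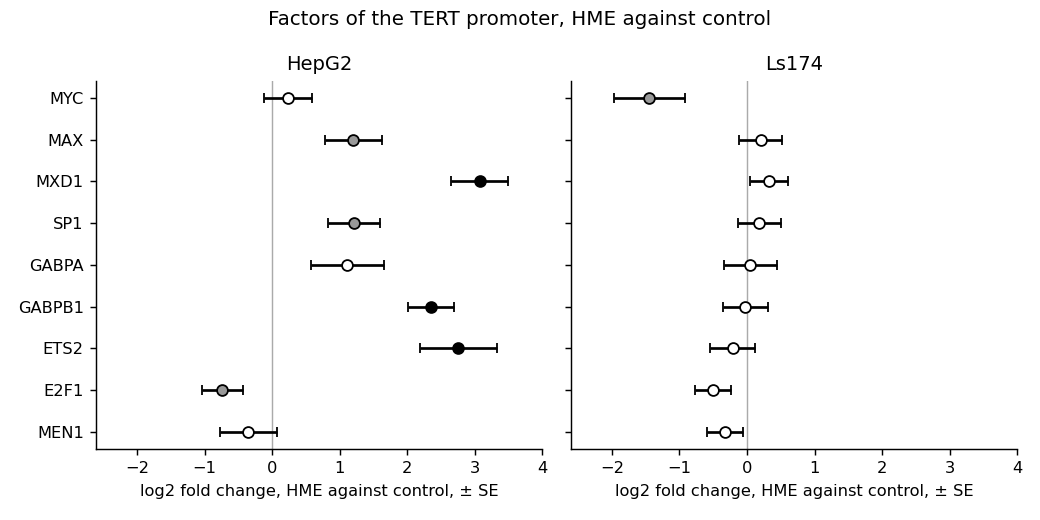
Log2 fold change with SE, HME against control, of 9 factors of the TERT promoter in HepG2 and Ls174. The list was chosen with earlier results of these data known. Black points passed an adjusted p under 0.05 in edgeR, grey points only the unadjusted rule and open points neither. MXD1, GABPB1 and ETS2 stand between 2.35 and 3.07 in HepG2 and between -0.21 and 0.33 in Ls174.

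The genes beside TERC on chromosome 3 were MYNN, ACTRT3, LRRC34, LRRIQ4, SAMD7 and SEC62. Only MYNN and SEC62 had enough counts for the test. MYNN had 45, 7 and 18 counts in HepG2 control and 49, 50 and 19 in HME libraries (1.01 ± 0.43, adjusted p = 0.206), and 34, 41 and 34 against 48, 38 and 46 in Ls174 (0.28 ± 0.33, adjusted p = 0.739). SEC62 had log2 fold changes of 0.61 ± 0.34 (adjusted p = 0.311) and -0.08 ± 0.35 (adjusted p = 0.941). ACTRT3, too low for the test, had 2, 1 and 4 counts in HepG2 control and 1, 0 and 0 in HME libraries. In Ls174 its counts were 0, 4 and 5 in control and 10, 5 and 9 in HME libraries. As levels, the Ls174 values were 0, 1.23 and 1.27 CPM against 3.62, 1.77 and 2.94 CPM.

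The 5 genes whose pattern was most like that of TERC over the 12 libraries, by the correlation of log2 CPM centred on the mean of each line, were CXCL1 (r = 0.949), FTLP3 (0.949), DLGAP1-AS1 (0.934), SGK2 (0.921) and SENP3-EIF4A1 (0.914), out of 13039. The 12 points share libraries and depth, and TERC has few counts, so that these values are a description. CXCL1, a chemokine, had 0, 5 and 6 counts in Ls174 control and 90, 112 and 114 in Ls174 HME libraries, and in HepG2 0, 5 and 0 against 0, 1 and 1. It was thus higher in treated Ls174 cells and, at 5 counts, highest of the HepG2 libraries in HepG2 control 2. FTLP3, a ferritin pseudogene whose reads may come from its near-identical parent gene, had 56, 78 and 132 counts in Ls174 control and 172, 185 and 157 in HME libraries.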

How the data were processed

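RNA from 12 cultures of human cell lines was measured with QuantSeq 3′ libraries on an Ion Proton. The authors mapped reads with Hisat2 to the hg19 (GRCh37) genome. The deposited values are whole-number counts per 3′ region, made with metaseqR2 and not normalized. The handling of strand and of reads with several alignments is not given in the sources used here. Here each gene received the sum of its regions. The tests used edgeR 4.0.16 in R 4.3.3 (TMM, filterByExpr by group, quasi-likelihood F test, two-sided), with each line fitted alone, the control lines against each other, and the interaction over all 12 libraries. Adjusted p values are Benjamini-Hochberg over all tested genes. The unadjusted rule follows the study's limits, p under 0.05 with a log2 fold change larger than 0.58 in size. Levels are CPM on TMM factors over the 12 libraries, with 3 counts as the floor. Total counts were 1790841 to 3656662 per library, and intervals cover counting error only. Replicate pairs all differed beyond sampling noise.

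The members and gene lists were chosen with earlier results of these data known. The genes named are the members, list genes called by either rule, the genes beside TERC and the 5 genes most like TERC. The shares of counts by region, the hexamers and the set of 414 genes with a region of their own were added after values were seen. Alternatives were DESeq2 1.42.0, library-size and upper-quartile scaling, other count filters (at least 1 count, or 10 counts in every library), a replicate block, all libraries in 1 fit, regions shared by genes dropped, the largest region only, the treated in place of the control lines, and leaving out each library. Sequences come from GRCh37 and positions from GENCODE 44 lifted to it. The scripts were tested on simulated data. A further sequence is not reported here.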

Additional observations from a re-analysis of the deposited data

Results flagged for a closer look

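Among the list genes, chosen with earlier results of these data known, 2 differed between the lines in their response to HME. The interaction, HepG2 minus Ls174, was 2.70 on the log2 scale for MXD1 (adjusted p = 0.0276, edgeR over all 12 libraries), where every HepG2 HME library lay above every HepG2 control. It was 2.35 for GABPB1 (adjusted p = 0.0327), likewise without overlap in HepG2. Over the alternatives the adjusted p ranged from 1.14e-05 to 0.13 for MXD1, which kept the call in 10 of 19, and from 0.000322 to 0.346 for GABPB1, which kept it in 7 of 19. Leaving out any HME library of either line but Ls174 HME 1 ended the call of GABPB1, as did leaving out HepG2 control 1 or 3 or Ls174 control 2 or 3. Leaving out any HME library or Ls174 control 2 ended that of MXD1.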

How the results depend on the processing

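The count of members called in HepG2 (1) was 0 at an adjusted p, 3 without a filter, 2 with at least 10 counts in every library and 2 in 1 fit of all libraries, and 0 to 3 when 1 library was left out (3 without control 2, which adds TERC and NOP10, 0 without HME 3). Of all genes, 3838 of 24458 were called without a filter, 1839 of 8394 with at least 10 counts and 3070 of 13040 in 1 fit. Without control 2 the number was 2874 of 11899, and without HME 3 it was 1736 of 11987. In Ls174 the count of members was 0 with at least 10 counts in every library, where TERC was not tested and 1206 of 9017 genes were called. Between the control lines the count of members (3) was 1 at an adjusted p, 5 of 10 without a filter and 8 of 10 in 1 fit of all libraries. It was 5 in the HME libraries, and 1 to 6 when a library was left out. Of all genes, 6452 of 24571 were called without a filter, 5718 of 13040 in 1 fit and 6728 of 11914 in the HME libraries. With a library left out, 3521 to 4932 genes were called. For the interaction (1) the count of members was 0 at an adjusted p, 0 with at least 10 counts in every library, and 1 to 2 when a library was left out. All genes called for it were 84 of 13040, 1083 of 7080 and, with a library left out, 1342 to 2161. The causes were not tested. Over the list genes called at an adjusted p, 65 values lost the threshold in an alternative and none changed sign. The log2 fold change of TERC ranged from -0.24 (without control 1) to 1.95 (without control 2) in HepG2 when a library was left out, and from 4.46 to 7.996 (without control 3) in Ls174.

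The replicate numbers did not pair the libraries: same-numbered libraries correlated at -0.15, 0.07 and -0.12 in HepG2, and -0.04, 0.01 and -0.06 in Ls174, in their deviations from the group means. With the replicate block the count of members called was 1 in HepG2 (NOP10 in place of NHP2), 1 in Ls174, 2 between the lines and 1 for the interaction. Of all genes it called 2072 of 11343, 1134 of 11319, 3218 of 11907 and 1342 of 13040.

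Scaling by library size moved the median log2 fold change in HepG2 from -0.04 to -0.20 and the calls from 1283 higher and 1233 lower to 861 and 1727, and moved the median between the lines from 0.04 to -0.17. The number of genes called at an adjusted p was 373 in place of 2516 in HepG2, 134 in place of 1352 in Ls174, 2797 in place of 4161 between the lines and 84 in place of 1717 for the interaction. By the unadjusted rule, the number called without a filter was 3838 in HepG2, 2356 in Ls174 and 6452 between the lines. With 10 counts in every library, the same rule called 2191 genes between the lines and 1083 for the interaction. Between the HME libraries of the lines it called 6728. Without Ls174 HME 2 or HME 3 it called 838 or 885 in Ls174. Depth limits TERC, TERT and POT1, which had 0 to 53 counts in a library.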
